A study of Mus musculus with 15 samples.

Results

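Ly6Chigh CD11c+ MHC-II+ cells were set against Ly6Clow cells sorted from the same kind of tumour, the SULT2B1b-LLC tumour. The members were chosen by their labels alone: the 4 Ly6Chigh libraries (tumours 1 to 4) and the 3 Ly6Clow libraries (tumours 2 to 4) of SULT2B1b-LLC tumours, 7 of the 15 libraries in the series. The other 8 libraries, 4 Ly6Chigh and 4 Ly6Clow from Mock-LLC tumours, entered the fit and served as the comparison at the end. LLC is Lewis lung carcinoma, a mouse tumour line; the SULT2B1b-LLC tumours are named for the sulfotransferase SULT2B1b, and the Mock-LLC tumours are their control. All 4 groups come from tumours established for 10 days and were sorted by flow cytometry. The label of the Ly6Clow cells names neither CD11c nor MHC-II, so the populations differ in the whole gate and not in Ly6C alone. The sources used here state neither host strain nor age, nor whether the SULT2B1b-LLC line is a clone or a pool. Tumours are numbered in the labels, but no label says that each grew in its own mouse, so a p-value here covers only the variation among these libraries, part of which may be technical. The question the design poses is which genes distinguish the 2 myeloid populations in tumours of the SULT2B1b-LLC line.

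Ly6C marks monocytes newly arrived from blood. In tumours such cells pass through states with high MHC class II, described as monocyte-derived antigen-presenting cells, and lose Ly6C as they become macrophages. Interferon receptors signal through STAT proteins and IRF9 to promoters that hold an interferon-stimulated response element, and resident or differentiated macrophages are known for complement C1q, lipid handling and lysosomal genes. SULT2B1b adds sulfate to cholesterol and to oxysterols, the ligands of the nuclear receptor LXR.

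Depth differed between the populations and cannot be told apart from them. The 4 Ly6Chigh libraries held 2617878 to 9865185 counts and the 3 Ly6Clow libraries 26600720 to 29752393. A floor of 3 counts therefore lay at 0.311 to 1.14 CPM (counts per 1000000 counts of the TMM-scaled library, where TMM is edgeR's trimmed mean of M-values) in single Ly6Chigh libraries, against 0.102 to 0.116 CPM in single Ly6Clow libraries. The Ly6Chigh library of tumour 1 stood apart: it had the fewest counts but 24540 genes with a count, where Ly6Chigh libraries of tumours 2 to 4 had 14002 to 14888. Its log2 CPM correlated with those of its replicates at r = 0.726 to 0.735, against 0.839 to 0.867 among the other Ly6Chigh libraries and 0.965 to 0.971 among Ly6Clow libraries. In that library 5 unnamed gene models (Gm10800, Gm10801, Gm26870, Gm10717 and Gm21738) summed to 61743 CPM, where the highest sum in the other 6 libraries was 74.0 CPM. Results are therefore given with and without it where it changes them.

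The sort can be read in the genes of its markers, which are a check and not a finding. Ly6c2 had 2111, 1449, 1557 and 1301 CPM in Ly6Chigh libraries, against 32.6, 30.2 and 19.8 CPM in Ly6Clow libraries. The cells labelled Ly6Clow had little Ly6c2, with no overlap between groups. Ly6c1, a near-identical neighbour that may share reads with Ly6c2, had 12.5, 34.9, 13.8 and 13.5 CPM in Ly6Chigh libraries, against 0.809, 0.0682 and 0.739 CPM in Ly6Clow libraries. Itgax, which encodes CD11c, had 149.9, 69.0, 111 and 74.5 CPM in Ly6Chigh libraries, against 122, 149 and 173 CPM in Ly6Clow libraries, with overlapping groups (adjusted p = 0.38). H2-Ab1, a class II beta chain, had 6724, 9661, 8493 and 11996 CPM in Ly6Chigh libraries, against 7998, 6313 and 9157 CPM in Ly6Clow libraries (adjusted p = 0.678). Class II transcripts were thus abundant in both populations, and none of the 12 class II pathway genes passed the edgeR test (1 at an unadjusted p under 0.05, 1 by DESeq2 and 1 by limma-voom; median log2 difference 0.02). Both populations carried Ptprc, the leukocyte antigen CD45, at 939, 998, 999 and 1004 CPM in Ly6Chigh libraries, against 727, 714 and 782 CPM in Ly6Clow libraries (adjusted p = 0.0699). Among lists of other cell types, the 13 T and natural killer cell markers summed to 22.1 to 46.1 CPM in Ly6Chigh libraries, against 15.7 to 23.2 CPM in Ly6Clow libraries, with Cd8a and Ncr1 at 0 in all 7. The 9 endothelial markers summed to 31.0 to 73.1 CPM in Ly6Chigh libraries, against 37.4 to 46.9 CPM in Ly6Clow libraries, with Cldn5 at 0 in all 7. The erythroid markers summed to at most 3.45 CPM. Eosinophil, neutrophil and fibroblast markers are described with their results.

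Of 13800 genes tested, 365 passed an adjusted p of 0.05 (2.64%). Ly6Chigh cells had 152 genes higher (1.1%) and 213 lower (1.54%) than Ly6Clow cells, with a median fitted fold of 2.34 among the higher and 2.24 among the lower. Counts of called list members below are to be set beside these shares of all tested genes. The groups did not overlap for 151 of the 152 and for all 213, and all 365 had the same sign in 3 of 3 tumours with both libraries. Non-overlap itself was common: 5.57% of all tested genes were higher and 13.9% lower in every Ly6Chigh library than in any Ly6Clow library. The median log2 difference over all tested genes was -0.03. The division between higher and lower depended on scaling: median-ratio factors moved that median by 0.11 and gave 218 higher and 151 lower, upper-quartile factors gave 195 and 170, and no factors gave 187 and 178. With the tumour as a block 210 genes passed (115 higher, 95 lower), of which 176 were among the 365. Leaving out the Ly6Clow library of tumour 2, 3 or 4 gave 175, 135 and 127 genes, and leaving out a Ly6Chigh library gave 303 to 421. The calls of 57 higher and 52 lower genes held in all 7 of these fits.

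**Figure D1:**
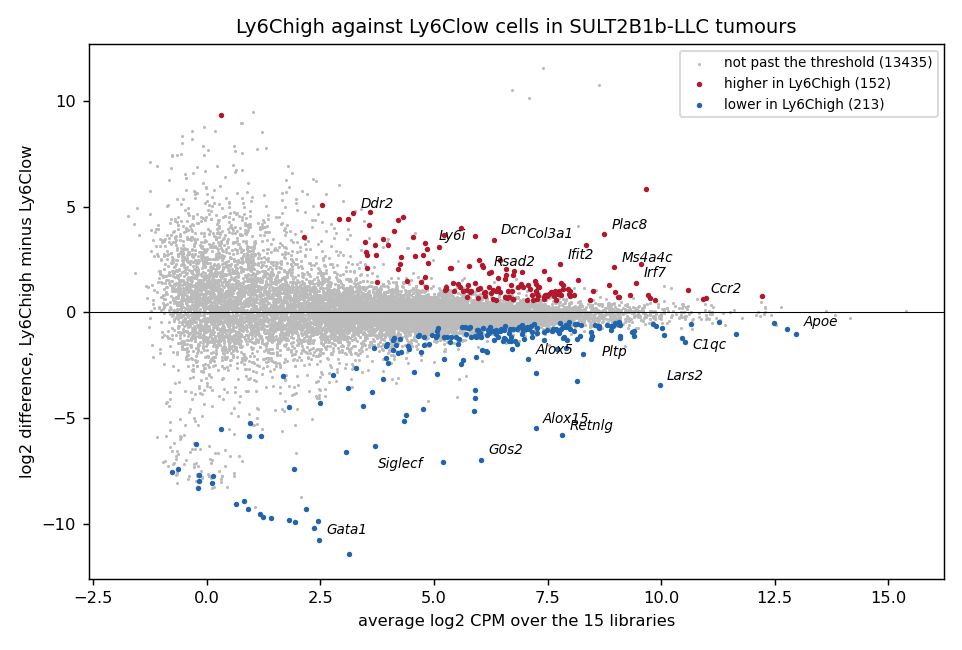
Log2 difference between Ly6Chigh and Ly6Clow cells of SULT2B1b-LLC tumours (y axis) against the average log2 CPM over the 15 libraries (x axis), 1 point per tested gene. Red points are the 152 genes higher and blue points the 213 genes lower in Ly6Chigh cells at an adjusted p under 0.05, and a sample of genes is labelled.

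Monocyte genes were among those that rose. Of 13 classical monocyte markers 6 were higher in Ly6Chigh cells, 1 was lower and 6 did not pass (median log2 difference 0.66, against -0.03 over all genes). Plac8 (chr5:100553725-100572245), a small cysteine-rich protein abundant in monocytes, had 814, 745, 748 and 689.6 CPM in Ly6Chigh libraries, against 63.1, 62.2 and 45.5 CPM in Ly6Clow libraries. All 4 Ly6Chigh libraries lay close together and far above the 3 Ly6Clow libraries, and the log2 difference was 3.72 ± 0.16 (SE; adjusted p = 3.75e-09). Ms4a4c, a membrane protein of the MS4A family, had 970.5, 864, 818 and 896 CPM in Ly6Chigh libraries, against 198, 217 and 183 CPM in Ly6Clow libraries (4.45-fold, adjusted p = 6.22e-07). Fcgr1, the high-affinity IgG receptor, rose 1.76-fold (adjusted p = 0.000262). The extracellular haemoglobin scavenger haptoglobin, Hp, rose 8.59-fold; its Ly6Chigh library of tumour 1 was high, at 98.4 CPM, where the other 3 had 38.9 to 41.6 CPM. Those 4 calls and that of Vcan, a matrix proteoglycan with overlapping antisense gene models (5.65-fold, adjusted p = 5.73e-05), held in all 7 fits with 1 library left out. Ccr2 (chr9:124101950-124113557), the receptor that brings monocytes out of the marrow, had 2028, 2027, 2325 and 2689 CPM in Ly6Chigh libraries, against 1347, 1394 and 1569.7 CPM in Ly6Clow libraries, and its groups did not overlap. It rose 1.58-fold (adjusted p = 0.0211), and its call was lost without the Ly6Chigh library of tumour 4 and without each Ly6Clow library. Fn1, fibronectin, went the other way, with 2476, 2697, 3309 and 4249 CPM in Ly6Chigh libraries, against 4601, 4928 and 7041 CPM in Ly6Clow libraries (1.74-fold lower, adjusted p = 0.0292). Of the 7 fits with a library left out, only the fit without the Ly6Chigh library of tumour 4 kept the Fn1 call. Chil3, which encodes a chitinase-like protein, overlapped between groups and did not pass (adjusted p = 0.402).

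**Figure D2:**
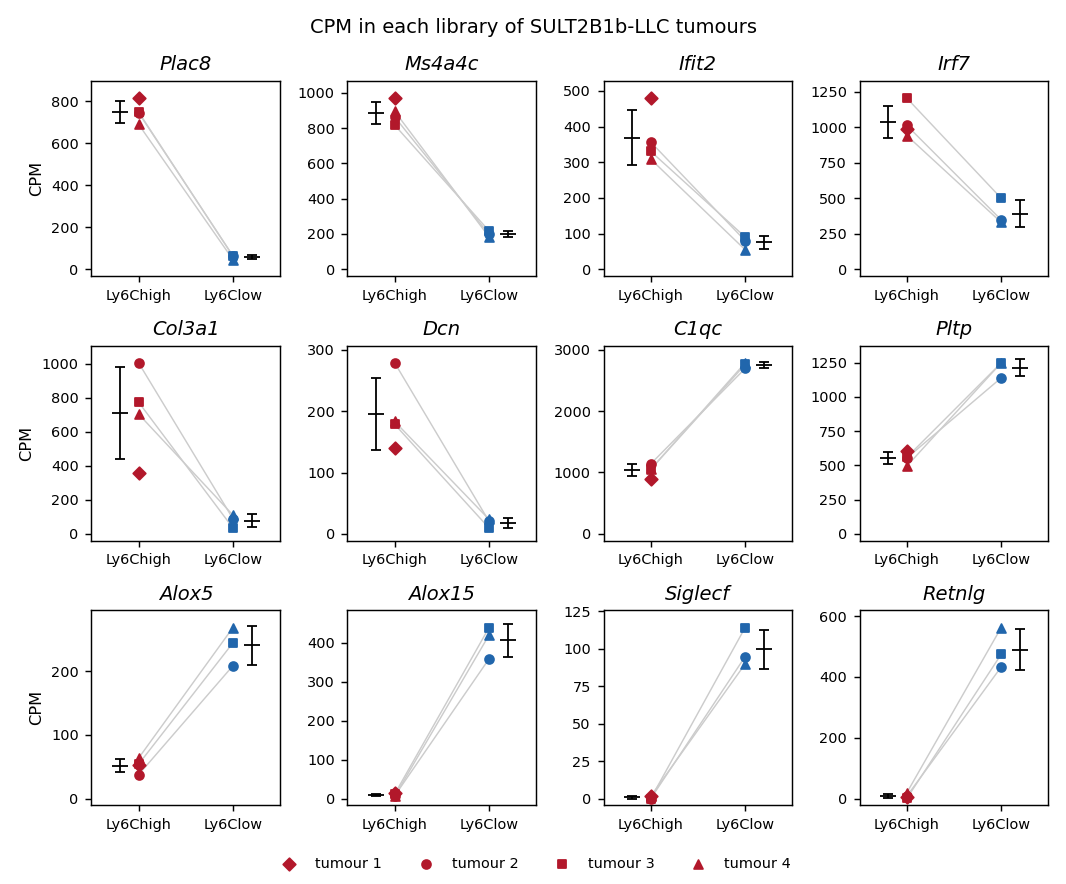
CPM of 12 genes (y axes, linear, each with its own scale) in the Ly6Chigh (red) and Ly6Clow (blue) libraries of SULT2B1b-LLC tumours. Marker shapes give the tumour, grey lines join libraries of the same tumour and bars give mean ± SD; in all 12 panels the 4 Ly6Chigh libraries lie wholly above or wholly below the 3 Ly6Clow libraries.

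Most listed type I interferon-stimulated genes rose. Of 28 listed and tested, 19 were higher in Ly6Chigh cells and none lower, and 26 were higher without overlap between groups, where 5.57% of all tested genes were (median log2 difference 1.13). In sum they took 4789.8 to 6304 CPM in Ly6Chigh libraries, against 2034 to 2966 CPM in Ly6Clow libraries. Ifit2 (chr19:34550694-34576419), which binds viral RNA and restricts translation, had 479.7, 357, 331 and 309 CPM in Ly6Chigh libraries, against 80.0, 90.5 and 54.6 CPM in Ly6Clow libraries. Every Ly6Chigh library held more than any Ly6Clow library, and the log2 difference was 2.30 ± 0.23 (SE; adjusted p = 4.08e-05). Irf7 (chr7:141262706-141266481), the transcription factor that amplifies interferon production, had 991, 1014, 1206 and 942 CPM in Ly6Chigh libraries, against 348, 500.3 and 330.1 CPM in Ly6Clow libraries. It rose 2.64-fold (adjusted p = 0.000114); the gene Phrf1 overlaps it on the opposite strand and the library kit does not mark strand. Rsad2, the antiviral enzyme viperin, had 253, 263, 254 and 199 CPM in Ly6Chigh libraries, against 69.8, 75.01 and 43.3 CPM in Ly6Clow libraries (3.86-fold, adjusted p = 4.34e-05). Isg15, a ubiquitin-like protein, rose 3.40-fold, Isg20, an exonuclease, 4.24-fold and Cmpk2, a mitochondrial nucleotide kinase, 3.08-fold (adjusted p = 3.2e-05, 0.000185 and 0.000129). The calls of these 6 genes held in all 7 fits with 1 library left out. The antiviral GTPase Mx1 had 178, 258, 316 and 135 CPM in Ly6Chigh libraries, against 82.9, 102 and 54.9 CPM in Ly6Clow libraries (2.77-fold, adjusted p = 0.0165); its call was lost without the Ly6Clow library of tumour 2 or 4. Bst2, or tetherin, had 259, 291, 321 and 264 CPM in Ly6Chigh libraries, against 209, 265 and 186 CPM in Ly6Clow libraries, with overlapping groups (adjusted p = 0.179). The 9 members that did not pass were Oas2, Oas3, Mx2, Ifi44, Ifih1, Ddx58, Dhx58, Herc6 and Bst2, each with a positive log2 difference. Over the 7 fits with 1 library left out 12 to 20 members were called, with 20 when the Ly6Chigh library of tumour 1 was out, 18 of them among the 19. Under the block 18 were called, among them Ifi44, which is not one of the 19. None of the 12 genes of interferon receptors and signalling passed in edgeR (5 at an unadjusted p under 0.05, 3 by DESeq2 and 1 by limma-voom; median log2 difference 0.22).

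Stretches of promoter are shown for genes of these lists whose upstream bases hold the letters of a known element. RefSeq promoters (GRCm38.p6) were searched over the 250 bases before each gene start for GAAA, any 2 bases and GAAA again, a core of the interferon-stimulated response element, on both strands and with overlapping matches allowed. It was present in 3.46% of all 27025 genes with a promoter in the table and in 3.51% of the 9598 tested genes with one. It was present in 29 of the 119 promoters of higher genes (24.4%) and in 7 of the 161 promoters of lower genes (4.35%). Among promoters of the type I list it was present in 9 of 21 (42.9%), and among those of higher genes outside the list in 22 of 104 (21.2%). The type I list was drawn up from genes known to respond to interferon, so its share is not independent of the element. The matches outside the list are not independent of each other. Ifi203, Ifi205, Ifi206, Ifi211 and Ifi213 lie in the same gene cluster. Phf11a and Phf11b have nearly the same stretch, as do Sirpb1a and Sirpb1b, and the stretch of Trim30d equals that of the listed Trim30a. The stretches below are written 5′ to 3′ along each gene's strand, with the matches in capitals; TTTC, any 2 bases and TTTC is the same element on the other strand.
Isg15: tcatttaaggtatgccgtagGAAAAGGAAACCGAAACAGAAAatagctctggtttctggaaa
Ifit1: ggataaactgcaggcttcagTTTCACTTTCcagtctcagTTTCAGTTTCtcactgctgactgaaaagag
Ifit3: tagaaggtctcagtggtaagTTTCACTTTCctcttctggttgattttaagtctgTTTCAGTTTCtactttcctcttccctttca
Ifit3b: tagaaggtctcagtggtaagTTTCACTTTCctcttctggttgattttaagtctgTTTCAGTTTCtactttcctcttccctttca
Oas1a: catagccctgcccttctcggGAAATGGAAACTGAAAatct
Cxcl10: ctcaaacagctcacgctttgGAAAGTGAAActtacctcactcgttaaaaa
The Isg15 stretch (chr4:156200855-156200916, minus strand) holds 3 overlapping matches. Those of Ifit1 (chr19:34640765-34640833, plus strand), Ifit3 (chr19:34583353-34583436, plus strand) and Ifit3b (chr19:34607749-34607832, plus strand) hold 2 each. The Ifit3 and Ifit3b stretches are the same letter for letter, and the transcripts of these neighbours may share reads. Ifit3 had 186, 188, 224 and 149 CPM in Ly6Chigh libraries, against 45.4, 66.4 and 37.3 CPM in Ly6Clow libraries, and Ifit3b 56.0, 24.5, 47.7 and 31.6 CPM in Ly6Chigh libraries, against 5.09, 7.97 and 5.88 CPM in Ly6Clow libraries, so both moved the same way (adjusted p = 0.000497 and 0.000398). Oas1a (chr5:120907526-120907565, minus strand), a sensor of double-stranded RNA, had 2 overlapping matches close to its start. It had 210.1, 215, 229 and 206 CPM in Ly6Chigh libraries, against 119, 143 and 115 CPM in Ly6Clow libraries (1.71-fold, adjusted p = 0.00289). Cxcl10 (chr5:92349073-92349122, minus strand) had 1 match, and the Ifit1 rise of 2.47-fold (adjusted p = 0.00797) was not called without the Ly6Clow library of tumour 4. A match describes letters and is not evidence that a factor binds there.

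All tested genes of the interferon-gamma list had a positive log2 difference, and a part of them passed. Of 23 tested, 3 were higher in Ly6Chigh cells and none lower (median log2 difference 0.72), while 11 were higher without overlap, where 5.57% of all tested genes were. DESeq2 called 10 and limma-voom 8, and other scalings gave 3 to 5. Cxcl10, a chemokine that draws T cells through CXCR3, had 365, 447, 432 and 320.1 CPM in Ly6Chigh libraries, against 166, 189.6 and 127 CPM in Ly6Clow libraries (2.43-fold, adjusted p = 0.0201); Art3 overlaps it on the opposite strand. The Cxcl10 call was lost without the Ly6Chigh library of tumour 2 and without each Ly6Clow library. Gbp9, a guanylate-binding GTPase, rose 2.10-fold and Irgm1, an immunity-related GTPase, 2.31-fold (adjusted p = 0.00612 and 0.0165; 0.0564 for Irgm1 with the tumour as a block). Cxcl9, the other CXCR3 ligand of the list, had 131, 242, 281 and 288 CPM in Ly6Chigh libraries, against 268, 202 and 184 CPM in Ly6Clow libraries, with the groups overlapping (adjusted p = 0.911). The Irgm1 call was lost whichever Ly6Clow library was left out and the Gbp9 call without that of tumour 4, so that 0 to 4 members were called when 1 library was left out. Whether the type I and interferon-gamma lists differed was not tested, and Cxcl10 and the GBP genes also respond to type I interferon. Of 22 chemokine ligands tested, 2 rose and 1 fell. Ccl5, a chemokine that draws T cells and monocytes, had 84.1, 96.7, 110.0 and 131 CPM in Ly6Chigh libraries, against 32.5, 17.6 and 20.6 CPM in Ly6Clow libraries, a 4.48-fold rise with no overlap (adjusted p = 0.000239). Cxcl14 had 3.41, 8.62, 14.3 and 14.5 CPM in Ly6Chigh libraries, against 19.5, 30.6 and 39.0 CPM in Ly6Clow libraries (2.81-fold lower, adjusted p = 0.0245), and was not called without the Ly6Chigh library of tumour 2 or the Ly6Clow library of tumour 3 or 4. The count in the class I pathway depended on scaling and tool. Of 16 genes tested 1 was called, against 4 to 6 higher under the other scalings, 7 called by DESeq2 and 6 by limma-voom, and 6 were higher without overlap. The 1 called was B2m, the light chain of MHC class I, at 5463, 7894, 7102 and 6543 CPM in Ly6Chigh libraries, against 4146, 4139.7 and 3594 CPM in Ly6Clow libraries (adjusted p = 0.028, and 0.054 with the tumour as a block). Its groups did not overlap, but its call held only in the fit without the Ly6Chigh library of tumour 1 and was lost in the other 6. Without that library Psmb9 and Psme1, which encode proteasome subunits of antigen processing, were called as well.

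A part of the macrophage genes fell in Ly6Chigh cells. Of 17 macrophage markers 6 were lower, none higher and 11 did not pass (median log2 difference -0.72). Their sums were 9047 to 12085 CPM in Ly6Chigh libraries, against 18615 to 18934 CPM in Ly6Clow libraries. C1qc (chr4:136889804-136893065), a chain of complement C1q, had 900.4, 1140.2, 1051 and 1052 CPM in Ly6Chigh libraries, against 2693, 2758 and 2785 CPM in Ly6Clow libraries. Its libraries lay close together within each population and far apart between them (log2 difference -1.41 ± 0.13 SE, adjusted p = 2.64e-05). C1qb and C1qa fell 2.04-fold and 2.30-fold (adjusted p = 0.000385 and 2.87e-05). Adgre1, which encodes F4/80, had 519, 660.5, 479 and 645 CPM in Ly6Chigh libraries, against 1168, 1016 and 1071 CPM in Ly6Clow libraries (1.88-fold lower, adjusted p = 0.00132). Calls of these 4 genes held in all 7 fits with 1 library left out. Folr2, a folate receptor of resident macrophages, and Stab1, a scavenger receptor, were also lower (adjusted p = 0.0263 and 0.0432). Stab1 had 0.102 under the block and lost its call in each of the 7 fits, and Folr2 in 6 of them. Csf1r, the receptor for macrophage colony-stimulating factor, had 2133, 2547, 2159 and 2746 CPM in Ly6Chigh libraries, against 3103, 2884 and 3075 CPM in Ly6Clow libraries, and did not pass (adjusted p = 0.144). Mrc1, the mannose receptor, had 713, 862, 589 and 457 CPM in Ly6Chigh libraries, against 1187, 1082 and 963 CPM in Ly6Clow libraries, without overlap; it passed only with the tumour as a block (adjusted p = 0.0325, against 0.129). Of 12 genes of tumour-associated macrophages 3 fell and none rose without the block. Spp1, a member of this list, was called higher with the tumour as a block. It was also called higher without the Ly6Chigh library of tumour 1. Trem2, a lipid-sensing receptor, had 236, 222, 272 and 283 CPM in Ly6Chigh libraries, against 449.5, 522 and 490.1 CPM in Ly6Clow libraries (1.92-fold lower, adjusted p = 0.000327). Arg1, arginase, was abundant in both populations, at 4801, 3516, 3930.0 and 2760.1 CPM in Ly6Chigh libraries, against 3449, 5014 and 3283 CPM in Ly6Clow libraries, and overlapped (adjusted p = 0.963).

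Genes of lipid handling fell in part. Of 16 tested LXR targets and lipoprotein genes 3 were lower in Ly6Chigh cells and none higher (median log2 difference -0.59). Apoe (chr7:19696109-19699188), the apolipoprotein that carries cholesterol out of macrophages, had 5087, 6962, 6469.7 and 7962 CPM in Ly6Chigh libraries, against 13501, 12252 and 13909 CPM in Ly6Clow libraries. Each Ly6Chigh library had less than any Ly6Clow library (2.00-fold lower, adjusted p = 0.00114). Pltp, the phospholipid transfer protein, had 607, 554, 559 and 495 CPM in Ly6Chigh libraries, against 1139.5, 1249 and 1249 CPM in Ly6Clow libraries (2.19-fold lower, adjusted p = 3.4e-06); Ctsa overlaps it on the opposite strand. Both calls held in all 7 fits with 1 library left out, while that of Lpcat3, a phospholipid-remodelling enzyme (adjusted p = 0.0453, and 0.107 under the block), was lost in each of them. The classical LXR target Abca1, a cholesterol exporter, had 78.0, 162, 55.5 and 54.3 CPM in Ly6Chigh libraries, against 149, 135 and 126 CPM in Ly6Clow libraries, with overlapping groups (adjusted p = 0.37). Abcg1, its partner, had 201, 160.3, 106 and 122 CPM in Ly6Chigh libraries, against 132, 134 and 152 CPM in Ly6Clow libraries (adjusted p = 0.93). None of 23 cholesterol synthesis genes passed in edgeR (2 at an unadjusted p under 0.05, 1 by DESeq2 and 1 by limma-voom; median log2 difference 0.15). Ch25h, which makes the LXR ligand 25-hydroxycholesterol, had 25.7, 19.8, 32.9 and 16.1 CPM in Ly6Chigh libraries, against 57.7, 122 and 53.6 CPM in Ly6Clow libraries without overlap; it passed only with the tumour as a block (adjusted p = 0.028, against 0.0645). Sult2b1 reads were counted in both populations, at 9.84, 9.31, 10.5 and 19.1 CPM in Ly6Chigh libraries, against 1.12, 1.30 and 2.39 CPM in Ly6Clow libraries, with no overlap (adjusted p = 0.255). In Mock-LLC tumours Sult2b1 averaged 0.162 ± 0.215 CPM in Ly6Chigh cells and 0.301 ± 0.22 CPM in Ly6Clow cells (SD, n = 4 each). Lmtk3 overlaps Sult2b1 on the opposite strand, and a carry-over of tumour RNA was not tested. Of 21 lysosomal genes 4 fell and none rose (median log2 difference -0.22). Ctsd, the protease cathepsin D, had 655, 899, 718 and 779 CPM in Ly6Chigh libraries, against 1221, 1324 and 1235 CPM in Ly6Clow libraries (1.65-fold lower, adjusted p = 0.00295), and was not called without the Ly6Clow library of tumour 3. The calls of Lipa, Hexa and Psap, which encode the lysosomal lipase, a hexosaminidase chain and the saposin precursor, had adjusted p = 0.0243, 0.0161 and 0.046, and Psap lost its call whichever library was left out. Under the block Hexa and Psap did not pass (adjusted p = 0.0958 and 0.0589); Lipa was called in 2 and Hexa in 3 of the 7 fits with a library left out, in neither case when that was a Ly6Clow library.

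**Figure D3:**
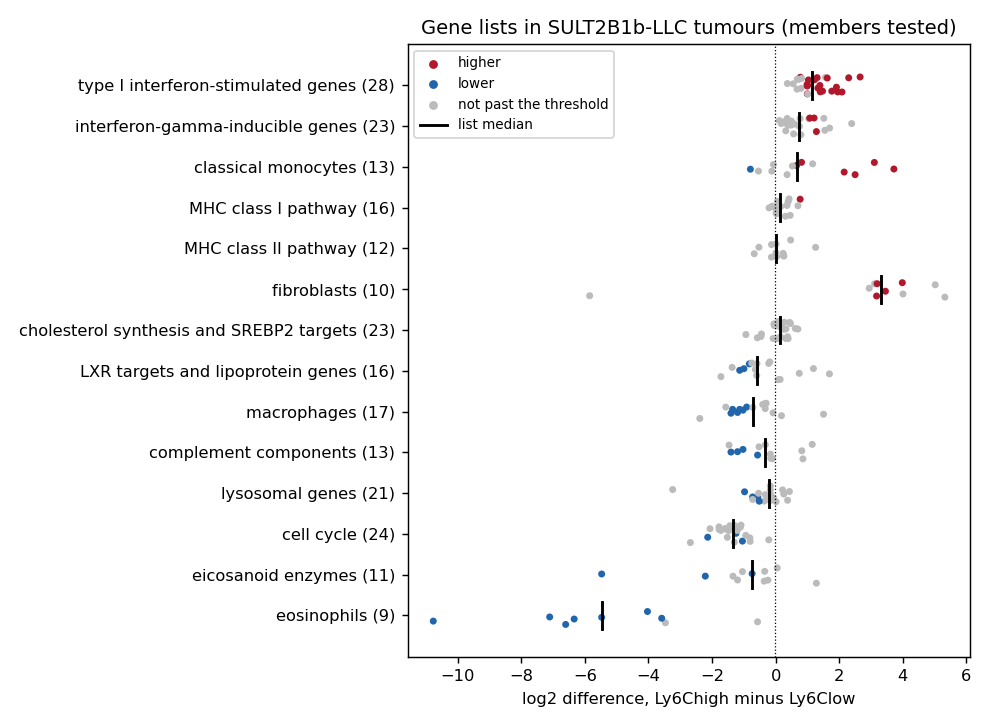
Log2 difference between Ly6Chigh and Ly6Clow cells (x axis) for the tested members of 14 gene lists (y axis, number tested in brackets), red if higher, blue if lower and grey if not past the threshold. Black bars are list medians and the dotted line is the median of all tested genes, at -0.03.

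Most tested eosinophil genes fell in Ly6Chigh cells. Of 12 listed genes 9 were tested, of which 7 were lower in Ly6Chigh cells and none higher (median log2 difference -5.47). Genes this low in Ly6Chigh cells entered the test through their Ly6Clow counts, so the median of the tested members describes only those. The whole list summed to 32.9 to 77.6 CPM in Ly6Chigh libraries, against 684 to 859 CPM in Ly6Clow libraries. In bulk libraries fewer cells of a type and less RNA per cell cannot be told apart. Siglecf (chr7:43351341-43359531), a sialic-acid-binding receptor of eosinophils and alveolar macrophages, had 1.89, 0, 0 and 1.56 CPM in Ly6Chigh libraries, against 94.8, 114 and 89.9 CPM in Ly6Clow libraries. At most 15 reads in a Ly6Chigh library were thus set against 2459 to 3351 in a Ly6Clow library (log2 difference -7.11 ± 1.02 SE, adjusted p = 0.00105). Prg2, the major basic protein of granules, had 0, 1.49, 0 and 0 CPM in Ly6Chigh libraries, against 31.3, 36.9 and 37.1 CPM in Ly6Clow libraries (adjusted p = 0.00586, and 0.106 under the block). Gata1, the transcription factor of the lineage, had 0 counts in all 4 Ly6Chigh libraries, against 12.6, 13.5 and 9.86 CPM in Ly6Clow libraries. Set against a floor of 3 counts over the group, it was at least 115-fold lower (adjusted p = 0.002, and 0.132 under the block). Il5ra, the interleukin-5 receptor chain, had 1.51, 0, 0 and 0 CPM in Ly6Chigh libraries, against 19.0, 20.6 and 20.8 CPM in Ly6Clow libraries (adjusted p = 0.0146, and 0.0826 under the block). Ccr3, the eotaxin receptor, had 14.0, 0.23, 8.12 and 12.2 CPM in Ly6Chigh libraries, against 116, 157 and 134 CPM in Ly6Clow libraries (adjusted p = 0.0459, and 0.109 under the block), and its call was lost whichever library was left out. Leaving out any Ly6Clow library also ended the call of Il5ra. Cebpe, a granulocyte transcription factor, fell 11.99-fold (adjusted p = 0.035, and 0.112 under the block), and was called in 2 of the 7 fits with a library left out. The granule genes Epx and Prg3 were low in both populations, with 0 counts in Ly6Chigh libraries and at most 1.35 CPM in a Ly6Clow library. With the tumour as a block 2 of the 7 calls were left, Siglecf and Alox15; without the Ly6Chigh library of tumour 1, 5 of the 7 held (Ccr3 and Cebpe did not) and Ear6, an eosinophil ribonuclease, was called in addition.

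Lipoxygenase genes led the eicosanoid enzymes. Of 11 tested, 3 were lower in Ly6Chigh cells and none higher (median log2 difference -0.74). Alox15 (chr11:70344152-70352031), the 12/15-lipoxygenase of eosinophils and some macrophages, had 13.3, 7.13, 11.4 and 6.12 CPM in Ly6Chigh libraries, against 359, 439 and 419.7 CPM in Ly6Clow libraries. The Ly6Chigh libraries were low but not empty, and the log2 difference was -5.47 ± 0.33 (SE; adjusted p = 2.26e-07). Alox5 (chr6:116410077-116461178), which starts leukotriene synthesis, had 52.6, 37.5, 53.9 and 63.4 CPM in Ly6Chigh libraries, against 209, 244 and 268 CPM in Ly6Clow libraries (4.64-fold lower, adjusted p = 2.14e-06). Both calls held in all 7 fits with 1 library left out. Lta4h, which makes leukotriene B4, fell 1.67-fold (adjusted p = 0.0064, and 0.0681 under the block), and lost its call whichever Ly6Clow library was left out. Ptgs2, or cyclooxygenase 2, had 11.7, 345, 38.3 and 291 CPM in Ly6Chigh libraries, against 224, 101 and 176 CPM in Ly6Clow libraries, a wide spread with overlapping groups (adjusted p = 0.987).

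Of 10 neutrophil markers tested 2 passed in edgeR, both lower in Ly6Chigh cells (5 at an unadjusted p under 0.05, 4 by DESeq2 and 2 by limma-voom). Without overlap 4 were lower and 1 higher, where 13.9% and 5.57% of all tested genes were. Retnlg (chr16:48872621-48874496), a resistin-like secreted protein, had 6.06, 7.93, 0.635 and 19.2 CPM in Ly6Chigh libraries, against 433, 475 and 563 CPM in Ly6Clow libraries (55.9-fold lower, adjusted p = 0.000917). Padi4, which citrullinates histones, had 71.9, 52.2, 44.0 and 35.7 CPM in Ly6Chigh libraries, against 129, 155 and 149.6 CPM in Ly6Clow libraries (adjusted p = 0.00268). The 18 listed markers summed to 197 to 326 CPM in Ly6Chigh libraries, against 782 to 934 CPM in Ly6Clow libraries, most of it Retnlg in Ly6Clow cells. Other defining neutrophil genes were low or at 0: Ly6g had 10.98, 0.115, 0.254 and 0.933 CPM in Ly6Chigh libraries, against 0, 0 and 0 CPM in Ly6Clow libraries, S100a8 had 4.17, 0.69, 1.14 and 2.90 CPM in Ly6Chigh libraries, against 2.62, 1.98 and 2.18 CPM in Ly6Clow libraries, and Elane and Ngp had 0 counts in all 7. Csf3r, the receptor for granulocyte colony-stimulating factor, had 123, 107, 94.5 and 90.7 CPM in Ly6Chigh libraries, against 97.7, 85.6 and 87.2 CPM in Ly6Clow libraries, with overlap (adjusted p = 0.725). Of the 12 largest falls several more lay outside the lists. G0s2 (chr1:193272161-193273217), an inhibitor of lipolysis that Lamb3 overlaps on the opposite strand, had 0, 1.84, 0.254 and 2.07 CPM in Ly6Chigh libraries, against 132, 208 and 132 CPM in Ly6Clow libraries (adjusted p = 0.000262). Pglyrp1, a peptidoglycan-binding granule protein, had 0, 1.26, 4.06 and 1.24 CPM in Ly6Chigh libraries, against 48.8, 53.2 and 51.7 CPM in Ly6Clow libraries, and F5, coagulation factor V, had 8.71, 12.4, 0.254 and 1.56 CPM in Ly6Chigh libraries, against 148, 135 and 138 CPM in Ly6Clow libraries (adjusted p = 0.00101 and 0.012). These 3 calls held in all 7 fits with 1 library left out, and all 3 genes were high in each Ly6Clow library. Chst13, a chondroitin sulfotransferase, had 0 counts in all 4 Ly6Chigh libraries, against 17.5, 20.4 and 20.5 CPM in Ly6Clow libraries (at least 188-fold lower, adjusted p = 0.0204, and 0.098 under the block), with the call held in 2 of the 7 fits with a library left out. The part of eosinophil or neutrophil RNA in these falls was not tested.

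Most cell cycle genes had lower levels in Ly6Chigh cells, and a few passed. Of 24 tested, 4 were lower and none higher (DESeq2 called 6 and limma-voom 8); 20 of 24 were lower without overlap, where 13.9% of all tested genes were, and the median log2 difference was -1.36. In sum they had 375 to 535 CPM in Ly6Chigh libraries, against 981 to 1041 CPM in Ly6Clow libraries. Mcm6, a subunit of the replicative helicase, had 85.2, 89.0, 42.3 and 54.4 CPM in Ly6Chigh libraries, against 167, 174 and 140.0 CPM in Ly6Clow libraries (2.38-fold lower, adjusted p = 0.00922). Birc5, or survivin, a mitotic regulator, had 4.92, 4.48, 4.44 and 12.3 CPM in Ly6Chigh libraries, against 29.9, 29.6 and 27.7 CPM in Ly6Clow libraries (adjusted p = 0.00664, and 0.0641 under the block). Mki67, the proliferation marker, had 31.0, 2.87, 2.79 and 16.9 CPM in Ly6Chigh libraries, against 37.9, 36.8 and 42.4 CPM in Ly6Clow libraries; its Ly6Chigh libraries varied widely and it did not pass (adjusted p = 0.43). When 1 library was left out 1 to 3 of the list were called. Mcm2 lost its call in each of these fits and under the block (adjusted p = 0.107), Mcm3 in 6 of 7 and Mcm6 without the Ly6Clow library of tumour 2 or 3.

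Some matrix and fibroblast genes rose in Ly6Chigh cells. Of 10 fibroblast markers, all tested, 4 were higher and none lower (median log2 difference 3.32; DESeq2 called 7 and limma-voom 5), and the list summed to 683 to 1571 CPM in Ly6Chigh libraries, against 54.8 to 154 CPM in Ly6Clow libraries. Col3a1 (chr1:45311538-45349706), the type III collagen chain, had 357, 1007, 775 and 705 CPM in Ly6Chigh libraries, against 88.7, 34.5 and 111 CPM in Ly6Clow libraries. The Ly6Chigh library of tumour 1 was the lowest of its group and still above every Ly6Clow library (log2 difference 3.19 ± 0.59 SE, adjusted p = 0.00733). Dcn (chr10:97479609-97518143), the proteoglycan decorin, had 140.1, 279, 179 and 183 CPM in Ly6Chigh libraries, against 20.4, 9.51 and 23.7 CPM in Ly6Clow libraries (10.9-fold, adjusted p = 0.00117). Lum, or lumican, rose 15.8-fold and Sparc, a matrix glycoprotein, 9.02-fold (adjusted p = 0.00926 and 0.00797). Calls of Col3a1 and Dcn held in all 7 fits with 1 library left out; Lum lost its call without the Ly6Clow library of tumour 2 or 3 and Sparc without that of tumour 3 or 4. Other defining markers were low, uneven or went the other way. Col1a1 had 46.2, 43.9, 3.30 and 35.9 CPM in Ly6Chigh libraries, against 6.21, 0.954 and 4.05 CPM in Ly6Clow libraries, where tumour 3 was low in Ly6Chigh cells and the groups overlapped (adjusted p = 0.0646). Pdgfra had 8.71, 7.47, 5.84 and 17.9 CPM in Ly6Chigh libraries, against 0.809, 0.102 and 0 CPM in Ly6Clow libraries (adjusted p = 0.074). Fap, fibroblast activation protein, had 0 counts in all 4 Ly6Chigh libraries but was counted in each Ly6Clow library. It was the 1 fibroblast marker with a negative log2 difference (-5.85) and did not pass. Of 24 collagen genes tested, 2 were higher (Col3a1 and Col4a1), 1 was lower and 21 did not pass (median log2 difference 3.15). The lower gene, Col14a1, had 1.89, 7.24, 6.22 and 15.9 CPM in Ly6Chigh libraries, against 37.9, 35.0 and 41.4 CPM in Ly6Clow libraries (4.67-fold lower, adjusted p = 0.00534). Further matrix genes were among the 12 largest rises. Mmp3, the protease stromelysin, had 51.5, 56.3, 67.4 and 60.3 CPM in Ly6Chigh libraries, against 3.39, 6.85 and 3.73 CPM in Ly6Clow libraries (adjusted p = 0.000403), and Ddr2, a collagen receptor, 4.54, 28.8, 28.2 and 27.1 CPM in Ly6Chigh libraries, against 1.08, 0.477 and 0.986 CPM in Ly6Clow libraries (adjusted p = 0.00523). Thbs2, Lamb1, Htra1, Mxra8, Serpinh1 and Stc1, which encode thrombospondin 2, a laminin chain, a serine protease, a matrix-remodelling protein, a collagen chaperone and stanniocalcin, rose 12.1-fold to 22.8-fold (adjusted p = 0.00185 to 0.0468). Under the block Lamb1 and Stc1 did not pass (adjusted p = 0.0821 and 0.0589), and they were called in 3 and 1 of the 7 fits with a library left out. Thbs2 and Mxra8 lost their calls without the Ly6Clow library of tumour 3 or 4, and Htra1 without that of tumour 2 or 3. How far RNA of fibroblasts or of tumour cells carried these genes was not tested.

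Il1b passed only when libraries were compared within tumours. Il1b (chr2:129364570-129371139), the inflammasome cytokine interleukin-1 beta, had 560.4, 2037, 1199 and 2587 CPM in Ly6Chigh libraries, against 749, 351 and 900.2 CPM in Ly6Clow libraries. Tumour 3 was low and tumours 2 and 4 high in both populations, and the groups overlapped in that the Ly6Chigh library of tumour 1 lay below 2 of the Ly6Clow libraries. The gene model Il1bos overlaps it on the opposite strand. Within tumours the ratio of Ly6Chigh to Ly6Clow cells was 2.72, 3.42 and 2.87 in tumours 2, 3 and 4. Without the block it did not pass (log2 difference 1.26 ± 0.52 SE, adjusted p = 0.259), and with the tumour as a block it did (1.58, adjusted p = 0.000521). A pair of activation genes, chosen after their values were seen, differed little between populations within a tumour. Cd83, a marker of activated dendritic cells, had 115, 862, 212 and 874 CPM in Ly6Chigh libraries, against 659.7, 231 and 758 CPM in Ly6Clow libraries (adjusted p = 0.969, and 0.836 under the block). Nr4a1, an immediate-early nuclear receptor, had 117, 773, 279 and 1069.5 CPM in Ly6Chigh libraries, against 620.3, 278 and 819.6 CPM in Ly6Clow libraries (adjusted p = 0.99, and 0.45 under the block). Both were high in tumours 2 and 4 and low in tumour 3, in Ly6Chigh and in Ly6Clow cells. Cd86, a costimulatory ligand, had 114, 244, 145 and 248 CPM in Ly6Chigh libraries, against 110.4, 106 and 122 CPM in Ly6Clow libraries. Cd86 passed under the block (adjusted p = 0.0304, against 0.122 without it). Without the block it also passed when the Ly6Chigh library of tumour 1 was left out. With all 15 libraries in the fit, 14 of the 537 listed genes tested passed only with the block and 23 only without it. The tumour 1 library has no Ly6Clow partner and gives a blocked fit no within-tumour difference.

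**Figure D4:**
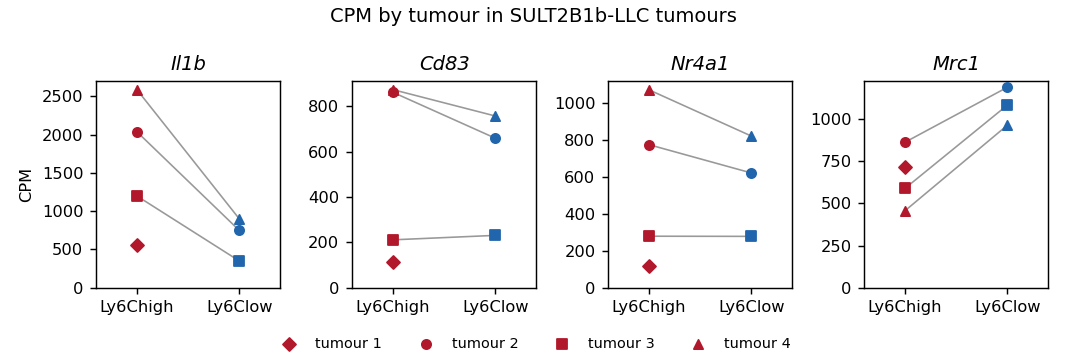
CPM (y axes, linear) of Il1b, Cd83, Nr4a1 and Mrc1 in Ly6Chigh (red, left) and Ly6Clow (blue, right) libraries of SULT2B1b-LLC tumours, with marker shapes for the tumour and lines joining libraries of the same tumour. On all 3 lines Il1b is higher and Mrc1 lower in Ly6Chigh cells, while Cd83 and Nr4a1 are high in tumours 2 and 4 and low in tumour 3 in both populations.

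Surface receptors moved in both directions. Of 18 C-type lectin receptors 3 were higher and 1 lower in Ly6Chigh cells (median log2 difference 0.42). Cd209a, a DC-SIGN homologue of monocyte-derived dendritic cells, had 165, 228, 177 and 218 CPM in Ly6Chigh libraries, against 72.9, 62.5 and 103 CPM in Ly6Clow libraries (2.49-fold, adjusted p = 0.000969). Clec4a3, an inhibitory receptor, rose 1.77-fold and Clec4e, or Mincle, a sensor of glycolipids, 2.92-fold (adjusted p = 0.0033 and 0.0104). The Clec4e call was lost without the Ly6Clow library of tumour 3. Clec4b1 had 7.95, 11.6, 11.3 and 6.74 CPM in Ly6Chigh libraries, against 18.6, 26.1 and 33.8 CPM in Ly6Clow libraries (adjusted p = 0.02, and 0.177 under the block). Of 6 Fc receptor genes Fcgr1 and Fcgr4 (1.78-fold, adjusted p = 0.0167) rose and Fcgrt, the neonatal receptor that recycles IgG, fell, with 96.6, 211, 110.0 and 124 CPM in Ly6Chigh libraries, against 331, 359 and 303 CPM in Ly6Clow libraries (adjusted p = 0.0191); the Fcgrt call held in 1 of the 7 fits with a library left out. Dpp4, a peptidase on some dendritic cells, had 34.8, 51.5, 42.1 and 36.5 CPM in Ly6Chigh libraries, against 13.3, 14.3 and 10.7 CPM in Ly6Clow libraries (adjusted p = 0.0188). Il13ra1, a chain of the interleukin-13 receptor, had 216, 194, 205 and 341 CPM in Ly6Chigh libraries, against 133, 113 and 141 CPM in Ly6Clow libraries (adjusted p = 0.0226); tumour 4 was high among Ly6Chigh libraries. Leaving out any Ly6Clow library ended the calls of Dpp4, Il13ra1, Tlr5 and Runx3, and leaving out that of tumour 3 or 4 ended those of Clec4b1, Fcgr4 and Hif1a; that of Il18 was lost without tumour 2 or 4. Havcr2, the checkpoint receptor TIM-3, had 309, 171, 212 and 166 CPM in Ly6Chigh libraries, against 113, 131 and 108 CPM in Ly6Clow libraries (adjusted p = 0.0483, and 0.0663 under the block), and was the 1 gene called of 11 tested in the suppression list. Its call was lost without the Ly6Chigh library of tumour 1 or 3 and without each Ly6Clow library. Tlr5, the flagellin receptor, averaged 38.7 ± 31.3 CPM in Ly6Chigh cells (SD, n = 4) and 7.48 ± 3.01 CPM in Ly6Clow cells (SD, n = 3; adjusted p = 0.0291, and 0.107 under the block). Il18, a cytokine of the interleukin-1 family that Bco2 and Tex12 overlap on the opposite strand, had 67.8, 48.3, 58.6 and 61.1 CPM in Ly6Chigh libraries, against 26.8, 32.6 and 22.4 CPM in Ly6Clow libraries (adjusted p = 0.0108, and 0.0895 under the block). Of 27 myeloid transcription factors Runx3 alone rose (2.03-fold, adjusted p = 0.0161), and Gata1 and Cebpe fell. Among immediate-early and heat-shock genes 1 of 19 passed, Hspa1b, an inducible HSP70, with 0, 15.7, 12.1 and 11.1 CPM in Ly6Chigh libraries, against 112, 47.6 and 72.0 CPM in Ly6Clow libraries (adjusted p = 0.0367; the call held in 1 of the 7 fits with a library left out). Hif1a, the hypoxia-inducible factor, was the 1 of 22 hypoxia and glycolysis genes called (1.68-fold higher, adjusted p = 0.0164). Single calls in lists of this size are to be set beside the 2.64% of all tested genes that passed.

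No gene passed in the lists of patrolling monocytes, type 1 dendritic cells, mature or plasmacytoid dendritic cells, B cells, T and natural killer cells, mast cells and basophils, endothelial, epithelial and erythroid cells, oxysterol and sulfotransferase genes or mitochondrially encoded genes, by the edgeR test without the block. Of the 80 genes tested in these lists 11 had an unadjusted p under 0.05, 7 passed in DESeq2 and 2 in limma-voom. Of the 13 mitochondrially encoded genes 6 were listed with 0 counts in all 7 libraries and could not be compared. Lars2 (chr9:123366927-123462666), a mitochondrial leucine tRNA synthetase, fell far, with 211, 133, 189 and 103 CPM in Ly6Chigh libraries, against 1456, 1801 and 1955 CPM in Ly6Clow libraries (log2 difference -3.45 ± 0.26 SE, adjusted p = 2.14e-06). The ratio of the unnamed model Gm15564 to Lars2 lay between 0.271 and 0.374 in each of the 7 libraries, and Mir6236 and Gm23935 were lower as well. What these models share with Lars2 was not tested.

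The same 2 populations were compared in Mock-LLC tumours, to see where SULT2B1b-LLC tumours differ. There 1160 genes passed (8.41%), 490 higher (3.55%) and 670 lower (4.86%) in Ly6Chigh cells. The Mock-LLC groups had 4 libraries each, where SULT2B1b-LLC tumours had 4 and 3. Leaving out 1 Ly6Clow library of SULT2B1b-LLC tumours brought their 365 calls to between 127 and 175. The numbers of calls, and the shares of them in common, therefore do not compare the size of the differences. Of the 152 genes higher in SULT2B1b-LLC tumours 111 were higher in Mock-LLC tumours as well, 73.0% of one list and 22.7% of the other. Of the 213 lower genes 140 were shared, 65.7% of one and 20.9% of the other, and no gene passed in opposite directions. The 2 comparisons share no library, but one estimate of the spread. Over the 365 genes 351 had the same sign in both tumour types, and the log2 differences correlated at r = 0.779 across genes, which are not independent. The difference between tumour types was tested by the interaction of population and tumour type, which 2 genes passed (0.0145%), with 986 at an unadjusted p under 0.05.

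**Figure D5:**
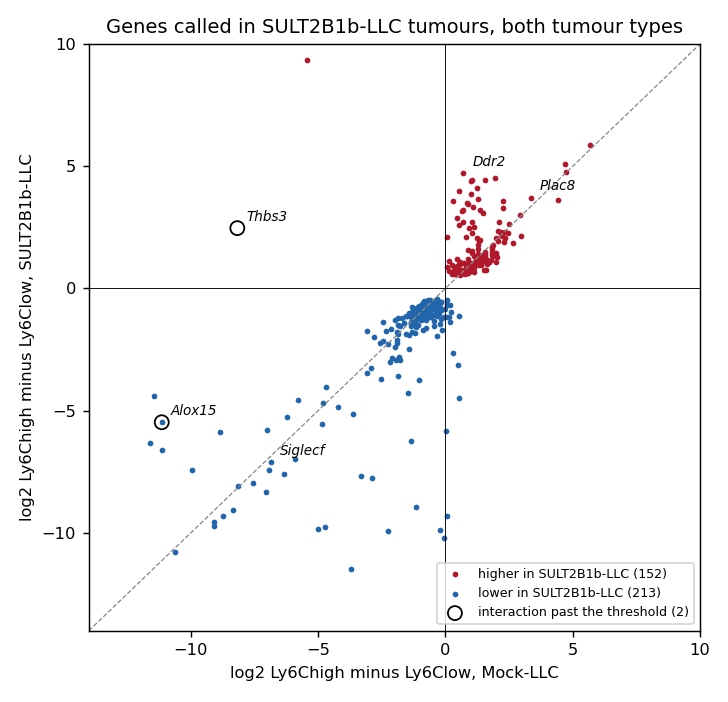
Log2 difference between Ly6Chigh and Ly6Clow cells in SULT2B1b-LLC tumours (y axis) against the same in Mock-LLC tumours (x axis) for the 365 genes called in SULT2B1b-LLC tumours, plus the 2 genes past the threshold of the interaction (circled). The dashed line marks equal differences. Of the 365 genes 351 have the same sign on both axes, against 9400 of all 13800 tested genes.

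Alox15 and Thbs3 were those 2 genes. The log2 difference of Alox15 was -5.47 in SULT2B1b-LLC tumours and -11.13 in Mock-LLC tumours, where it averaged 0.0905 ± 0.181 CPM in Ly6Chigh cells and 250.5 ± 39.0 CPM in Ly6Clow cells (SD, n = 4 each). The interaction was 5.66 ± 0.65 (log2, SE) at an adjusted p of 0.00362. Its fitted size rests on a Mock-LLC Ly6Chigh group near 0. Ly6Chigh cells of SULT2B1b-LLC tumours thus held Alox15 reads that Ly6Chigh cells of Mock-LLC tumours almost lacked. Thbs3 (chr3:89215180-89226837), thrombospondin 3, overlapped by Mtx1 on the opposite strand, had 8.33, 14.4, 12.9 and 5.49 CPM in Ly6Chigh libraries, against 1.46, 1.67 and 2.43 CPM in Ly6Clow libraries. In Mock-LLC tumours it had 0 counts in all 4 Ly6Chigh libraries and 1.97 ± 0.773 CPM in Ly6Clow libraries (SD, n = 4), so the fitted interaction of 10.64 ± 1.39 (log2, SE; adjusted p = 0.0402) rests on a group at 0. Neither gene passed the interaction with the tumour as a block. No type I interferon gene passed the interaction in edgeR, DESeq2 or limma-voom (5 at an unadjusted p under 0.05 in edgeR). The list's median log2 difference was 1.13 in SULT2B1b-LLC and 1.55 in Mock-LLC tumours. For interferon-gamma genes the medians were 0.72 and 1.58, and for fibroblast markers 3.32 and 0.78. The edgeR interaction had an unadjusted p under 0.05 for 10 of 23 interferon-gamma genes, 6 of 10 fibroblast markers and 7 of 12 class II pathway genes. This was so for 986 of all 13800 tested genes, and no gene of these 3 lists passed after adjustment. Dcn had an interaction of 2.58 ± 0.62 (log2, SE; adjusted p = 0.305). Class II pathway medians were 0.02 and 0.78; Cd74, the class II invariant chain, averaged 18862 ± 3662 CPM in Ly6Chigh cells (SD, n = 4) and 20695 ± 3360.2 CPM in Ly6Clow cells (SD, n = 3) of SULT2B1b-LLC tumours. In Mock-LLC tumours it averaged 12668 ± 2069 CPM in Ly6Chigh cells and 7275 ± 1175 CPM in Ly6Clow cells (SD, n = 4 each), and its interaction did not pass (-0.93 ± 0.24, log2, SE; adjusted p = 0.327).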

How the data were processed

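RNA of sorted cells had been made into SMART-Seq v4 libraries from 500 ng of RNA and read as single 75-nt reads on a NextSeq 500, per the labels' protocols; the kit does not mark strand. The authors deposited 1 table of whole-number counts per gene symbol; STAR 2.5.3a, featureCounts, limma and mm10/GRCm38 are listed per the submitters' processing notes, and the sources used here state no counting options. No row was blank or a total, and 0 per-sample columns were left out. All 15 libraries in 4 groups were fitted with edgeR 4.0.16 (R 4.3.3; TMM factors, filterByExpr, robust quasi-likelihood F test, 11 residual degrees of freedom), with Benjamini-Hochberg adjustment over 13800 genes; the self-test ran on simulated data. The SE is the log2 difference divided by the square root of F.

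Members, gene lists and the rule for named genes were chosen with earlier results of these data known. The rule takes, per direction, the 12 largest log2 differences without overlap (average log2 CPM at least 3), the 6 largest CPM differences, up to 3 called members per list with each list's most abundant member, the sort genes, Sult2b1, Ptprc, Lars2, Trem1, Itgam and the interaction genes, leaving Gm and Rik models and sort genes out of the first 2 sets. Other genes named in the text, gene families among them, were chosen after their values were seen. The labels give both populations of a tumour the same number, which is where the pairing comes from; after subtracting group means, the 2 libraries of tumours 2, 3 and 4 correlated at r = -0.0103, 0.0383 and 0.0795. Where the tumour block changes the call of a gene described singly, its value stands beside the result. Among genes only counted in a list, calls changed by the block are not all named. Replicates of a group differed by more than sampling noise (chi-square over its degrees of freedom, 26.1 to 90.6), so each counted as 1 sample. Alternatives were other scaling factors, filters, thresholds and sample sets, DESeq2 1.42.0, limma-voom 3.58.1, the tumour block and each library left out. Gene positions are from GENCODE M21 (GRCm38), and 47653 of 50508 symbols had one. The floors of 3 counts cover counting error only, and reads carry no molecular identifiers. Each SE and SD rests on the spread between libraries.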

Additional observations from a re-analysis of the deposited data

Results flagged for a closer look

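In the 4 Ly6Chigh libraries of SULT2B1b-LLC tumours, 14 of the 126 named genes had 1 library set apart from the other 3. The flag came from a test of the gap against the range, which marks about 5 percent of groups by chance. Tumour 1 stood apart for 6 genes: Alox5ap was lowest there at 384 CPM, Ddr2 at 4.54 CPM and Ptprc at 939 CPM, while Hp was highest at 98.4 CPM, Il5ra at 1.51 CPM and a gene model named after its genomic clone at 49.98 CPM. Tumour 2 was highest for Hbb-bs at 2.99 CPM, Ly6c1 at 34.9 CPM and Prg2 at 1.49 CPM, and tumour 3 for Car4 at 3.81 CPM. Tumour 4 was highest for Birc5 at 12.3 CPM, Il13ra1 at 341 CPM, P2rx1 at 5.18 CPM and Sult2b1 at 19.1 CPM. For Il5ra, P2rx1 and Prg2 the other 3 libraries had 0 CPM, where any read sets off the flag. A flagged gap can also be small: the other 3 Ptprc libraries had 998 to 1004 CPM.

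The gap between Ly6Chigh and Ly6Clow cells differed between SULT2B1b-LLC and Mock-LLC tumours for 2 genes by a test of the interaction. It was 5.66 (log2) for Alox15 and 10.64 (log2) for Thbs3. In the Ly6Chigh libraries of Mock-LLC tumours Thbs3 had 0 counts and Alox15 was near 0.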

How the results depend on the processing

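The 365 calls between Ly6Chigh and Ly6Clow cells of SULT2B1b-LLC tumours became 204 with no filter on low counts, 874 with DESeq2, 685 with limma-voom, 722 with its quality weights and 155 at an adjusted p under 0.01. They became 210 with the tumour as a replicate block and 231 with the block in tumours 2 to 4 only. When 1 library was left out, 127 to 421 genes passed, the fewest without the Ly6Clow library of tumour 4 and the most without the Ly6Chigh library of tumour 1. Other scaling factors, a stricter filter, the non-robust fit and the 7 libraries alone gave 246 to 392. The interaction's 2 genes became 1 with no filter, with a stricter filter and at an adjusted p under 0.01, 109 with DESeq2, 4 with limma-voom, 0 with its quality weights and 0 with the replicate block; leaving out 1 library gave 1 to 3. The causes of these shifts were not tested. Of the 126 named genes, the 86 called kept their sign under each alternative run, while 13 of the 40 that were not called took both signs, among them Cd74, Cd83, Nr4a1 and Arg1. Under the block 97 kept their side of the threshold, 27 lost the call and 2 gained it. Median-ratio scaling moved the median of all genes by 0.11 (log2), so small rises and falls depend on scaling. The Ly6Chigh libraries are the shallower, which limits low genes: 21 of the 213 lower genes had 0 counts in all 4.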

Other observations

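Members of several gene families rose in Ly6Chigh cells of SULT2B1b-LLC tumours, most of them on none of the lists; Ms4a4c and Trim30a are on lists described above. They were read from gene symbols after the called genes had been seen, so their counts are a description with no test, to be set beside the 1.1% of all genes called higher. Of 12 PYHIN genes tested, a family of DNA sensors in a cluster of near-identical copies, 7 were higher and none lower, and the family summed to 1495 to 1967 CPM in Ly6Chigh libraries, against 723 to 977 CPM in Ly6Clow libraries. Schlafen genes, which restrict translation and growth, gave 4 higher of 8, and IFITM genes, which block the entry of enveloped viruses, 4 of 6. The MS4A cluster gave 6 higher of 10, PHF11 genes 3 of 4, TRIM30 genes 2 of 4 and all 3 SIRPB1 genes were higher. Reads of these copies may be shared between them. The Ly6 genes outside the sort gave 3 higher of 4, Ly6e, Ly6i and Ly6a. Ly6i had 125, 134, 123 and 184 CPM in Ly6Chigh libraries, against 12.5, 12.3 and 9.75 CPM in Ly6Clow libraries (12.3-fold, adjusted p = 7.79e-07).

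Single genes outside the lists were also chosen after their values were seen. Klrk1, which encodes the activating receptor NKG2D, had 75.7, 83.1, 96.3 and 86.4 CPM in Ly6Chigh libraries, against 19.2, 18.1 and 19.3 CPM in Ly6Clow libraries, without overlap (adjusted p = 2.14e-06). Cd24a, a surface glycoprotein, had 61.0, 40.0, 32.0 and 40.7 CPM in Ly6Chigh libraries, against 309.8, 359 and 268 CPM in Ly6Clow libraries, lower in every Ly6Chigh library (adjusted p = 2.74e-06). Fcrls, a scavenger receptor of the Fc receptor-like family, had 186, 138, 109.5 and 105 CPM in Ly6Chigh libraries, against 449.9, 579 and 549 CPM in Ly6Clow libraries (adjusted p = 0.00102). Ass1, which makes arginine from citrulline, had 106, 126, 126 and 161 CPM in Ly6Chigh libraries, against 50.5, 64.9 and 61.0 CPM in Ly6Clow libraries (adjusted p = 0.00277). The calls of these 4 genes held in all 7 fits with 1 library left out, and all 4 also passed in the same direction in Mock-LLC tumours. Il4, the cytokine interleukin-4, had 0.379, 0, 0 and 0 CPM in Ly6Chigh libraries, against 7.79, 9.99 and 7.78 CPM in Ly6Clow libraries (adjusted p = 0.00797, and 0.172 under the tumour block).

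Slc40a1, the iron exporter ferroportin, had 0 counts in all 4 Ly6Chigh libraries of SULT2B1b-LLC tumours, against 6.36, 7.05 and 10.9 CPM in the Ly6Clow libraries (at least 78.4-fold lower against a floor of 3 counts over the group; adjusted p = 0.00164, and 0.054 under the tumour block). In Mock-LLC tumours its log2 difference was -0.03 (adjusted p = 0.986), and its interaction did not pass (adjusted p = 0.131). Rhox5, an X-linked homeobox gene, had 4.92, 27.6, 21.1 and 26.3 CPM in Ly6Chigh libraries, against 2.62, 2.76 and 2.89 CPM in Ly6Clow libraries (adjusted p = 0.0199), and in Mock-LLC tumours a log2 difference of 0.46 (adjusted p = 0.657; interaction adjusted p = 0.466). Its Ly6Chigh library of tumour 1 lay well below those of tumours 2 to 4, and its call was lost whichever Ly6Clow library was left out.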
